A study of Mus musculus with 10 samples.

Results

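The cells described here were P19 cells, a mouse embryonal carcinoma line that is undifferentiated and pluripotent in culture, transfected with a pool of scrambled siRNAs that serves as the negative control (siCtl) for a knockdown of Larp1. They were harvested 24 h after 1 transfection or at 48 h, and the 48 h cells had been transfected again, with the same siRNA pool, 24 h after the first transfection. The genotype was WT in both groups and no differentiating agent was given. Poly(A) RNA was read by direct RNA nanopore sequencing, in which each read is 1 native RNA molecule and carries an estimate of the length of its poly(A) tail. Members were the alignments of the siCtl libraries to mRNA sequences with a tail estimate of PASS quality: 1407846 alignments in 5 libraries, of 2132085 such alignments in the 10 libraries of the series and of 2652217 alignments of every kind. The 3 libraries at 24 h are numbered 19, 21 and 22 in the deposited table, the 2 at 48 h are numbered 24 and 25, and values below follow that order. After mitochondrial mRNAs and pseudogenes were set aside, 289738, 344246 and 423398 alignments remained at 24 h and 112720 and 178704 at 48 h. The 24 h libraries were sequenced as a pool of their own and the 48 h libraries in another pool, on other runs, together with siLarp1 libraries, so time, number of transfections and pool cannot be told apart in any comparison below. The study's methods call the samples barcoded within a pool biological replicates. The labels do not say whether they came from separate cultures, so the spread between these libraries may be technical in part. The p-values by gene use a spread that limma estimates in part from other genes. They therefore do not measure the spread between libraries of that gene alone.

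A poly(A) tail is added to an mRNA in the nucleus, bound by poly(A)-binding protein in the cytoplasm, and shortened by deadenylases as the molecule ages, so that a cell holds a mixture of newer and older tails of each gene. TOP mRNAs, which start with a run of pyrimidines and encode the ribosomal proteins and several translation factors, are bound by LARP1, a protein that keeps these messages stable when translation is held back. P19 cells express the pluripotency network around Pou5f1 (Oct4), and Nodal signalling through its co-receptor Tdgf1 (Cripto) can move such cells towards the primitive streak and mesoderm.

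The labelled cell type was checked first. Pou5f1, the core pluripotency factor, stood at 2464, 2278 and 2695 RPM (kept reads of a gene per 1000000 kept reads of the library) at 24 h and at 2608 and 2625 RPM at 48 h. Of 30 pluripotency genes listed for the check, 27 had a read and 15 had at least 30 reads. Their summed level lay between 3843 and 4932 RPM, and Pou5f1 made up the larger part of it in each library. Markers of other cell types were lower in sum: 17 neural genes summed to 336 to 444 RPM and 10 endoderm genes to 189 to 266 RPM. Of the neural genes, 13 had a read and 4 had at least 30 reads, and of the endoderm genes 6 and 1. Among those with few or none, Sox1, Neurog1 and Gata4 were at 0 reads and Pax6, Map2 and Gata6 at 1 or 2 reads in all. These 6 do not stand for their lists, which were not silent. Both sums lay above the level of the pluripotency factor Nanog, at 11.6 to 115 RPM over the 5 libraries. The 10 mesoderm genes listed summed to 43.6 to 116 RPM at 24 h and to 275 and 420 RPM at 48 h, with T, described below, the most abundant of them at 48 h. Larp1, the target of the siRNA in the companion libraries, was at 75.9, 84.2 and 85.0 RPM in the siCtl libraries at 24 h and at 169 and 123 RPM at 48 h, against 19.1 to 44.9 RPM in the 3 siLarp1 libraries at 24 h and 18.5 and 24.9 RPM in the 2 at 48 h. All 5 siCtl libraries lay above all 5 siLarp1 libraries, which is the order the labels give. The higher Larp1 level at 48 h among the siCtl libraries did not pass the test (log2 fold change 0.78 ± 0.28 SE, adjusted p = 0.18).

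The libraries differed in technical measures along the same split as time. The median speed at which RNA passed the pore was 108 nt per second in each 24 h library and 112 nt per second in each 48 h library, the median aligned length was 781 to 801 nt against 765 and 704 nt, and alignments that could have been placed elsewhere equally well (mapping quality of 0) made up 12.5 to 13.1% at 24 h against 14.9 and 18.3% at 48 h. Their part in the results was not tested. Across the 1825 genes with at least 100 reads, log2 RPM correlated at r = 0.976 to 0.978 between 24 h libraries, at 0.939 between the 48 h libraries and at 0.948 to 0.953 between time points. A read counted once for each gene it aligned to, and 0.0268% of reads aligned to more than 1 gene. RPM was not divided by transcript length, since a read stands for 1 molecule.

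At baseline most of the genes with the highest levels belonged to the translation machinery. At least 1 read was found for 12677 genes and at least 30 reads for 4648 genes, which held 94.6% of the reads. The 10 genes with most reads held 8.35% of them and the 100 with most reads 40.8%. Gapdh, a glycolytic enzyme, had most reads (11687, 12866 and 11321 RPM at 24 h and 10921 and 11137 RPM at 48 h), followed by Eef1a1, the elongation factor that brings aminoacyl-tRNA to the ribosome (11101, 11841 and 9871 RPM at 24 h and 9413 and 11042 RPM at 48 h). Next came Rplp1, then reads assigned to Rps2-ps10, Ppia, a peptidyl-prolyl isomerase, Rpl41, Rps12, Rplp0, Rpl32 and Rpl23a, so that 6 of the 10 were ribosomal protein genes. Rps2-ps10 is named as a copy of Rps2, and reads under that name cannot be assigned to it with confidence. The 77 ribosomal protein genes together took 298087, 303671 and 299855 RPM at 24 h and 283250 and 284812 RPM at 48 h, so that close to 3 in 10 reads came from them. TOP genes as a whole, the ribosomal protein genes with 22 other TOP mRNAs, held 34.5 to 35.4% of reads at 24 h and 32.8 and 33.3% at 48 h, and these ranges did not overlap.

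Tails were long at both time points. Over genes with at least 100 reads the median of the mean tail lengths was 109 nt, the 10th and 90th percentiles were 97.5 and 125 nt, and the extremes were 80.7 nt for Snf8, a subunit of the ESCRT-II sorting complex, and 176 nt for 6820431F20Rik. Among the 958 genes with at least 200 reads, the shortest means included those of Snf8 (80.7 nt), Gm10260 (85.7 nt, named as a predicted gene), Vim, the intermediate filament vimentin (87.8 nt), Ndufa5, a subunit of respiratory complex I (88.0 nt), Timm23, a pore of the mitochondrial inner membrane (89.2 nt), Rpl24 (89.9 nt) and Ppib (90.4 nt). The longest means lay with reads assigned to D10Wsu102e (148 nt), with Hnrnph1, a splicing regulator (148 nt), and with Ddx3x, an RNA helicase (146 nt). They were followed by reads assigned to Vmn2r97 (146 nt), Mt1, a metallothionein (142 nt), Alyref, an mRNA export adaptor (142 nt), Nasp, a histone chaperone (142 nt), and Scd2, a fatty acid desaturase (140 nt). Snf8 means ran from 75.9 to 93.8 nt over the 5 libraries and Hnrnph1 means from 138 to 160 nt, so the short and long ends of the ranking did not meet. A gene's mean tail at 24 h and at 48 h was correlated across the 1825 genes with at least 100 reads (Spearman 0.62, Pearson 0.67). Over the same genes tail length was weakly related to level (Spearman -0.17) and was longer where the transcript was longer (Spearman 0.30 over the 1807 genes with a length in the annotation). These are correlations across genes, which share libraries and base composition and are not independent replicates.

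Tails were shorter in both 48 h libraries than in any 24 h library. The median tail of all kept reads was 102.6, 104.4 and 102.1 nt at 24 h and 97.1 and 98.6 nt at 48 h, a difference of -5.15 nt between the group means of 103 ± 1.20 nt (SD, n = 3) and 97.9 ± 1.07 nt (SD, n = 2). Taken by sequencing run, the medians of the 24 h libraries ran from 101 to 105 nt and those of the 48 h libraries from 96.2 to 98.8 nt. The groups did not overlap by run either, but the runs read the same libraries and add no replicates. In the classes of tail length, <30-nt tails made up 2.26 ± 0.14% of reads at 24 h and 2.89 ± 0.10% at 48 h. Tails of 30 to 90 nt made up 37.9 ± 1.08% and 41.2 ± 0.68%, and tails over 150 nt 19.9 ± 0.38% and 18.2 ± 0.40%. No call can be made on these shares: 3 against 2 libraries cannot give a p below 0.2 in the two-sided exact permutation test, and each of the 18 measures (median, mean and 4 classes over all, TOP and non-TOP genes) separated the time points fully at that smallest p of 0.2 (Benjamini-Hochberg adjusted p = 0.2).

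**Figure D1:**
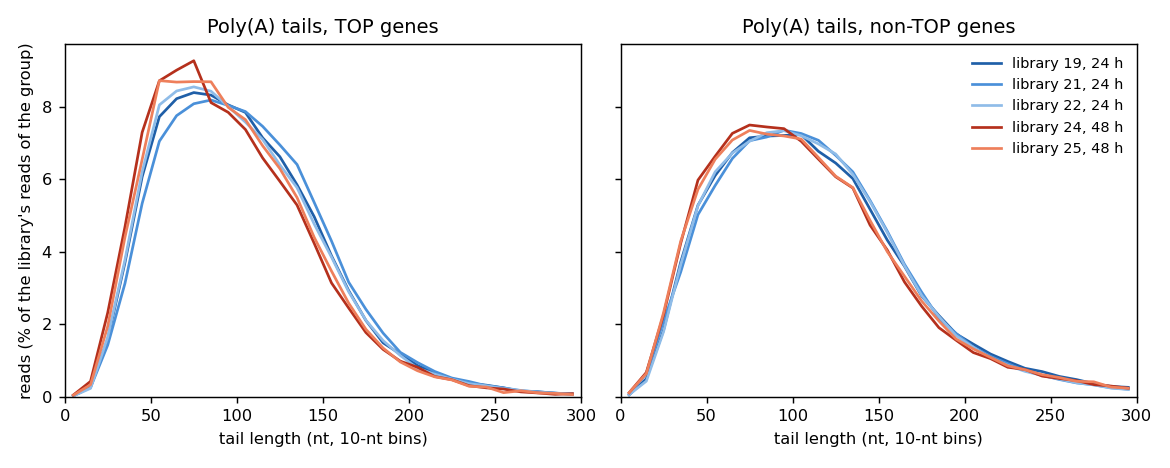
Share of each library's reads (percent, y axis) by tail length in 10-nt bins (x axis) for TOP genes (left) and non-TOP genes (right); each line is 1 siCtl library, blue at 24 h and red at 48 h. Both red lines lie above the blue ones between 30 and 80 nt and below them between 110 and 200 nt, and they overlap in some bins outside these ranges.

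TOP mRNAs had shorter tails than non-TOP mRNAs in every library. Their median tail was 97.0, 101 and 95.8 nt at 24 h and 90.1 and 92.5 nt at 48 h, against 105.8, 106.5 and 105.8 nt and then 100.7 and 102.03 nt for non-TOP genes. The gap between the groups ran from -5.54 to -10.0 nt at 24 h and was -10.5 and -9.53 nt at 48 h, so these ranges overlapped. Between time points the medians differed by -6.57 nt for TOP and by -4.66 nt for non-TOP genes. The share of 30 to 90-nt tails differed by 4.60 percentage points in TOP and by 2.83 points in non-TOP genes, again with p = 0.2 by the exact permutation test. Whether TOP and non-TOP genes differed in their shift was not tested at this level.

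Mitochondrial mRNAs, whose short tails are made inside the organelle by another polymerase, were measured in the same runs. The pooled median tail of these mRNAs was 61.6, 60.2 and 61.8 nt at 24 h and 59.7 and 60.2 nt at 48 h, and the groups overlapped (difference -1.21 nt, exact permutation p = 0.4). Of 9 mitochondrial mRNAs with at least 50 reads in every library, 5 overlapped between the time points. The other 4, mt-Co2, mt-Nd1, mt-Nd2 and mt-Nd4, were lower at 48 h, by 1.79 to 2.57 nt. Among the nuclear-encoded genes tested below, 21.1% were lower without overlap, measured there on mean tails. The part of depth in these counts was not tested. mt-Co1, which encodes the core subunit of cytochrome oxidase, had medians of 68.0, 64.4 and 69.6 nt against 66.5 and 66.1 nt. The shift of these mRNAs was smaller in nt than that of nuclear-encoded mRNAs, and that difference was not tested. Their tails were also shorter to begin with, at a mean of the 24 h medians of 61.2 nt against 103 nt.

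**Figure D2:**
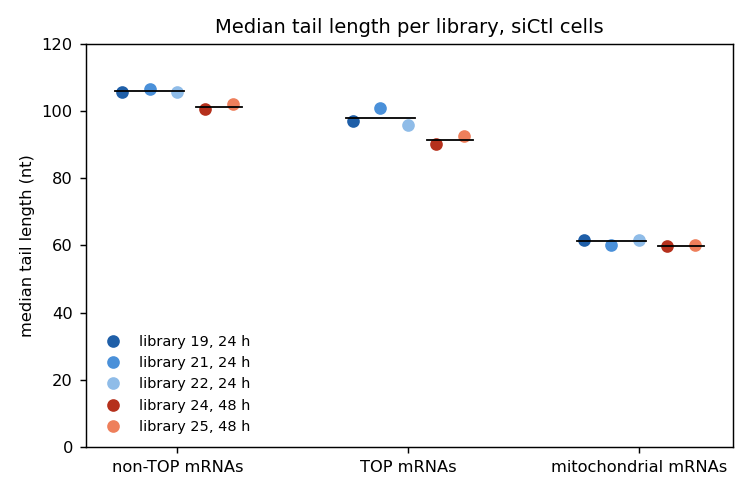
Median tail length (nt, y axis from 0) of non-TOP, TOP and mitochondrial mRNAs in each siCtl library; points are libraries, blue at 24 h and red at 48 h, and black lines are group means. The 48 h points lie below the 24 h points for non-TOP and TOP mRNAs and overlap them for mitochondrial mRNAs.

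Synthetic RNA standards could not serve the same comparison. Of reads of PASS quality, 426 came from standards in library 22, 10 in library 19, 10 in library 21, 5 in library 24 and 3 in library 25, so that the 48 h siCtl libraries held too few for a median. Within the 48 h pool, the siLarp1 library 25 held 129 such reads. Beside library 22, its median was 59.2 nt (44 reads) against 58.3 nt (138 reads) for the standard named 64-A and 109 nt (39 reads) against 110 nt (100 reads) for 256-A. It was 55.6 nt (24 reads) against 59.1 nt (105 reads) for 128-A, 33.5 nt (18 reads) against 37.6 nt (54 reads) for 32, and 30.97 nt (4 reads) against 28.2 nt (29 reads) for 16. Beside the siLarp1 library 22 of 24 h, the siLarp1 library 25 was lower for 3 standards. These were 64-A (60.4 nt in library 22, 38 reads), 128-A (63.1 nt, 43 reads) and 256-A (115 nt, 39 reads). It was higher for 16 (25.6 nt, 20 reads) and close for 32 (33.3 nt, 28 reads). The standards thus differed in both directions on few reads. With 1 library on each side of each comparison, these differences were not tested.

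The shift was then tested gene by gene. Among 4589 genes with at least 30 reads and with reads in at least 2 libraries of each time point, 12 had shorter mean tails at 48 h (0.261% of those tested) and 0 had longer ones (limma on means weighted by reads, adjusted p under 0.05; 325 and 61 genes at an unadjusted p under 0.05). The differences below are in nt, 48 h minus 24 h, with SE. Over all genes tested the median difference was -4.05 nt, and 2860 of 4589 genes were below 0. After each library was centred on its own median over genes, the median difference was 0.30 nt and 0 genes passed limma's test (113 longer and 112 shorter at an unadjusted p under 0.05), so no gene was called relative to the shift that its library showed as a whole. The number called also rested on single libraries: it was 0 without library 24, 1 without library 25, 2 without library 19 and 59 without library 22. The 5 genes with the smallest p-values for longer tails, Ttyh3, Ube2a, Xab2, Chac1 and Tada2a, did not pass (adjusted p = 0.23 to 0.35).

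Apart from 2 genes with few reads, Pou5f1 and Tuba1a had the largest differences among the called genes. The mean tail of Pou5f1 (chr17:35506018-35510772, mm10) was 123, 120 and 123 nt at 24 h and 111 and 109 nt at 48 h, a difference of -12.63 ± 2.43 nt (adjusted p = 0.0061), while its level did not differ detectably (log2 fold change 0.07, adjusted p = 0.86). The time points did not overlap for the tail and did for the level. The share of its tails between 30 and 90 nt was 23.1, 23.6 and 25.5% at 24 h and 34.4 and 38.8% at 48 h, a rise of 12.80 ± 1.94 percentage points (adjusted p = 1.06e-07). Tuba1a, an alpha tubulin, was called on both measures as well: its mean tails were 116, 113 and 115 nt against 99.7 and 102.2 nt (-13.20 ± 3.11 nt, adjusted p = 0.045), and its 30 to 90-nt share rose from 31.2 ± 0.77% (SD, n = 3) to 44.5 ± 1.20% (SD, n = 2; adjusted p = 0.0025).

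Translation genes made up most of the remaining calls. Apart from Mrpl24, given last, they had 5101 to 14505 reads each, and the part of depth in this was not tested. Eef1a1 tails averaged 115, 117 and 115 nt at 24 h and 104 and 109 nt at 48 h, a difference of -7.98 ± 1.29 nt (adjusted p = 0.00085). For Rpl41, the smallest ribosomal protein, the means were 100.5, 101.5 and 99.5 nt against 92.8 and 94.5 nt (-6.61 ± 1.30 nt, adjusted p = 0.0072). The time points did not overlap for either gene. Rps12, Rpl11 and Rplp1 fell by 6.50, 7.72 and 5.68 nt (adjusted p = 0.027, 0.034 and 0.035), and reads assigned to Rps2-ps10 fell by 7.61 nt (adjusted p = 0.00085). Ppia fell by 6.996 nt and Gapdh by 5.67 nt (adjusted p = 0.0033 and 0.015). The last calls were on few reads: Mrpl24, a mitochondrial ribosomal protein, had means of 127, 132 and 118 nt against 70.9 and 75.1 nt on 116 reads in all, and Chmp4b, an ESCRT-III subunit, had 138, 126 and 124 nt against 86.8 and 85.1 nt on 166 reads.

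**Figure D3:**
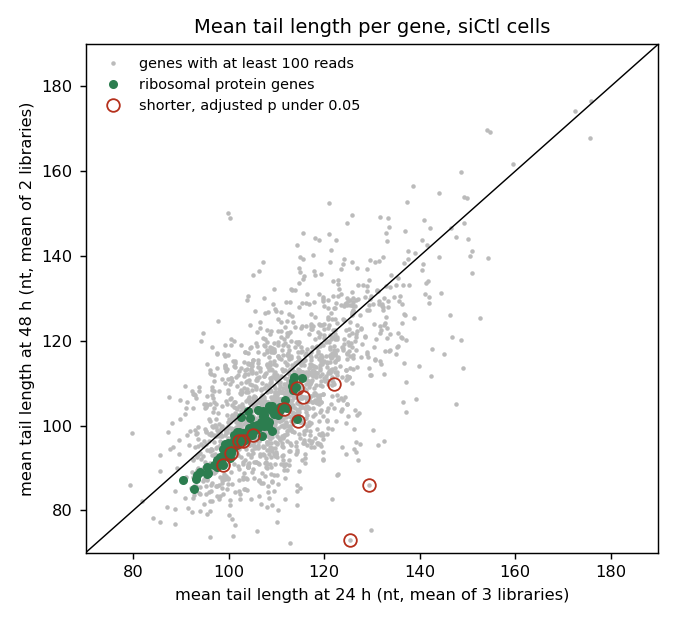
Mean tail length per gene at 24 h (x axis, nt, mean of 3 libraries) and 48 h (y axis, nt, mean of 2 libraries) for 1825 genes with at least 100 reads, of which 1 lies outside the axes; the line marks equality, green points are 77 ribosomal protein genes and red rings the 12 genes called shorter. Nearly all green points lie under the line, and the rings furthest from it are Mrpl24 and Chmp4b.

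The 77 ribosomal protein genes all lay on the side of shorter tails. Their tail difference was below 0 in 77 of 77, against 2860 of 4589 genes tested, with a median of -5.54 nt beside -4.05 nt over all genes tested. Between the time points 63 of 77 did not overlap, against 21.1% of genes tested. All 77 had at least 100 reads, as had 1825 of the 4648 genes with at least 30 reads. The part of depth in these contrasts was not tested, and no gene was called after centring on the library median. Of the 77, 4 passed the test for shorter tails. By gene, medians of the mean tail were 104 nt at 24 h and 98.5 nt at 48 h. In the 22 other TOP mRNAs, 17 differences were below 0, with a median of -4.78 nt, and Eef1a1 was the 1 call. In the nuclear-encoded respiratory chain 67 of 77 differences were below 0, with a median of -6.14 nt and 0 calls, and in heat shock chaperones 17 of 21, with a median of -5.42 nt and 0 calls. The genes of deadenylation and poly(A) binding had 7 of 17 below 0 with a median of 2.77 nt, and those of G2 and M phase 24 of 49 with a median of 0.90 nt, so not every group shared the direction in the siCtl libraries. The Nodal genes described below had 5 of 13 below 0, with a median of 16.3 nt and 0 calls, and 6 of 13 were higher without overlap, against 7.34% of genes tested. They had 31 to 302 reads each, far fewer than the ribosomal protein genes, and the part of depth in this was not tested.

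The share of tails between 30 and 90 nt gave the smallest adjusted p-values among the tail measures by gene. It was higher at 48 h in 16 of 4589 genes (0.349%) and lower in 0, with 272 and 58 at an unadjusted p under 0.05. Of the 16, 9 were ribosomal protein genes (Rpl41, Rplp1, Rplp2, Rps29, Rps9, Rpl7, Rpl8, Rps20 and Rps15a), which were 77 of the 4589 genes tested. Eef1a1 belongs to the other TOP mRNAs, and Pou5f1, Gapdh, Tuba1a, Ppia and the uncertain Rps2-ps10 were also called. The fit weights by reads, and the 9 ribosomal protein genes had 4607 to 13153 reads each. The part of depth in these calls was not tested. Eef1a1 had 31.1, 27.8 and 32.1% of its tails in this class at 24 h and 41.0 and 34.8% at 48 h (6.70 ± 1.02 points, limma adjusted p = 1.06e-07). Its SDs between libraries were 2.24 points at 24 h (n = 3) and 4.37 points at 48 h (n = 2). The SE of 1.02 rests on a spread that limma pooled over genes with reads as weights. For Eef1a1 it is smaller than those SDs would give. The adjusted p-values on these shares thus do not measure the spread between each gene's own libraries. Rpl41 had 42.5, 42.8 and 44.96% against 49.9 and 50.3% (6.60 ± 1.31 points, adjusted p = 0.00042), and Gapdh 31.7, 32.8 and 31.4% against 36.7 and 38.7% (5.96 ± 0.99 points, adjusted p = 2.02e-06). The other called genes rose by 4.75 to 8.05 points, apart from Pou5f1 and Tuba1a. The genes with the smallest p-values for a lower share, Pipox, Dhx38, Yipf5, Bub1b and Cetn2, did not pass. The count was 3 without library 24, 3 without library 25, 7 without library 21 and 27 without library 22.

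No gene passed the test on <30-nt tails. With limma on percentage points, 0 of 4589 genes were called, with 160 higher and 24 lower at an unadjusted p under 0.05. The smallest p-values lay with Gnas, a G-protein subunit (0, 0 and 0% against 1.64 and 2.17%, adjusted p = 0.25), and Eno1, a glycolytic enolase (0.30, 0.35 and 0.22% against 1.17 and 0.94%, adjusted p = 0.54). Glo1, Eno1b and Polr3c for a higher share, and Hnrnpu, Hypk, Dnajc24 and Eif3b for a lower one, followed without passing (adjusted p = 0.54 to 0.90). Without library 24, 28 genes passed, and without library 25, 3 passed.

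The first transcribed bases of genes called on tail length are shown because the TOP motif is defined there. Each line gives 30 bases of the RefSeq promoter table (GRCm38.p6), 10 before the annotated start and 20 from it, 5′ to 3′ on the strand of the gene, with the unbroken run of C and T from the start in capitals. Rplp2 (chr7:141447641-141447670, plus strand), Rps15a (chr7:118116128-118116157, minus strand), Eef1a1 (chr9:78481705-78481734, minus strand), Tuba1a (chr15:98953482-98953511, minus strand), Pou5f1 (chr17:35506022-35506051, plus strand) and Gapdh (chr6:125165754-125165783, minus strand) are listed in that order.
Rplp2: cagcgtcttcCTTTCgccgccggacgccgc
Rps15a: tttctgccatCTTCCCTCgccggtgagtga
Eef1a1: ctccgccctcTTCCCgagggtgggggagaa
Tuba1a: agaagcaacaCCTCCTCCTCgcctccgcca
Pou5f1: tggggagggagaggtgaaaccgtccctagg
Gapdh: agagggaggaggggaaatgagagaggccca
The search for a pyrimidine run was chosen after values had been seen. A C at the annotated start followed by pyrimidines, at least 5 in all, was present in 12 of the 57 ribosomal protein genes with an entry (21.1%), in 3 of the 13 called genes with an entry (23.1%) and in 2.53% of all 27025 promoters. These 3 called genes, Rplp2, Rps15a and Tuba1a, are all among the windows shown. The letters C or T did not begin at the annotated start of Pou5f1 or Gapdh, nor at that of the called ribosomal protein genes Rpl11, Rpl41 and Rps12. The runs of Eef1a1 and of the called Rps9 began with T, and that of Rps9 held 3 bases. The annotated start need not be the start used in these cells.

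Levels were tested next. Of 4648 genes with at least 30 reads, 41 were higher at 48 h (0.882%) and 10 were lower (0.215%) by limma voom (adjusted p under 0.05, with 381 and 135 at an unadjusted p under 0.05). The median log2 fold change was 0.06. It was -0.018 over genes with at least 100 reads and 0.34 over genes with at least 1 read. The 48 h libraries were the shallower ones, and the part of depth in the excess of higher calls was not tested. When libraries were scaled by the median of ratios in place of kept reads, 29 were higher and 13 lower, so the share of calls that were higher went from 80.4% to 69.0%. Without library 25 it was 15 higher and 26 lower, and without library 19 it was 26 and 4. Log2 fold changes are given as 48 h over 24 h with SE.

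Some of the genes called higher belong to Nodal signalling and the primitive streak. This list of 30 genes was put together after levels had been seen, so its counts are a description and cannot be ranked against other lists. Of these genes, 13 were tested and 11 were above 0, against 2600 of 4648 genes tested. As higher, 6 passed, against 0.882% of genes tested. T (Brachyury), the mesoderm transcription factor of the primitive streak, was at 48.3, 20.3 and 80.3 RPM at 24 h and at 142 and 313 RPM at 48 h (chr17:8434423-8442496, mm10), a log2 fold change of 2.32 ± 0.33 (adjusted p = 2.94e-06). Fst, follistatin, a secreted inhibitor of activins, was at 75.9, 72.6 and 68.5 RPM and then at 231 and 274 RPM (1.82 ± 0.25, adjusted p = 7.44e-07). Both genes were higher in each 48 h library than in any 24 h library, and library 21 was the lowest 24 h library for T, Nodal, Nanog, Eomes, Pmepa1 and Tdgf1. Nodal, the ligand of the pathway, was at 51.8, 26.1 and 66.1 RPM and then at 133 and 134 RPM (1.54 ± 0.33, adjusted p = 0.0042). Tdgf1, its co-receptor, was at 159, 128 and 246 RPM and then at 355 and 381 RPM (1.08 ± 0.21, adjusted p = 0.0017). Eomes, a T-box factor of the streak, and Pmepa1, a feedback inhibitor that TGF-beta family signalling induces, had log2 fold changes of 1.85 ± 0.47 and 1.72 ± 0.40 (adjusted p = 0.036 and 0.014). Of the members that did not pass, Fgf8 was at 27.6, 11.6 and 9.45 RPM against 62.1 and 44.8 RPM (adjusted p = 0.0598), Lefty1 was at 25.98 to 40.7 RPM against 44.4 and 61.6 RPM (adjusted p = 0.51), and Smad4, the shared signal transducer, had a log2 fold change of -0.59 ± 0.76 (adjusted p = 0.87). The TGTNNATT motif of FOXH1, a DNA-binding partner of the pathway's SMADs, was searched on both strands after values had been seen and was present in 1 of the 4 tested members with a promoter entry (Tdgf1), beside 12.4% of all 27025 promoters. The other 17 members had under 30 reads, among them Gsc, Mixl1, Lefty2, Foxh1 and Smad7. The mesoderm markers with enough reads, T and Eomes, were both called, and 8 other mesoderm genes had too few reads.

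**Figure D4:**
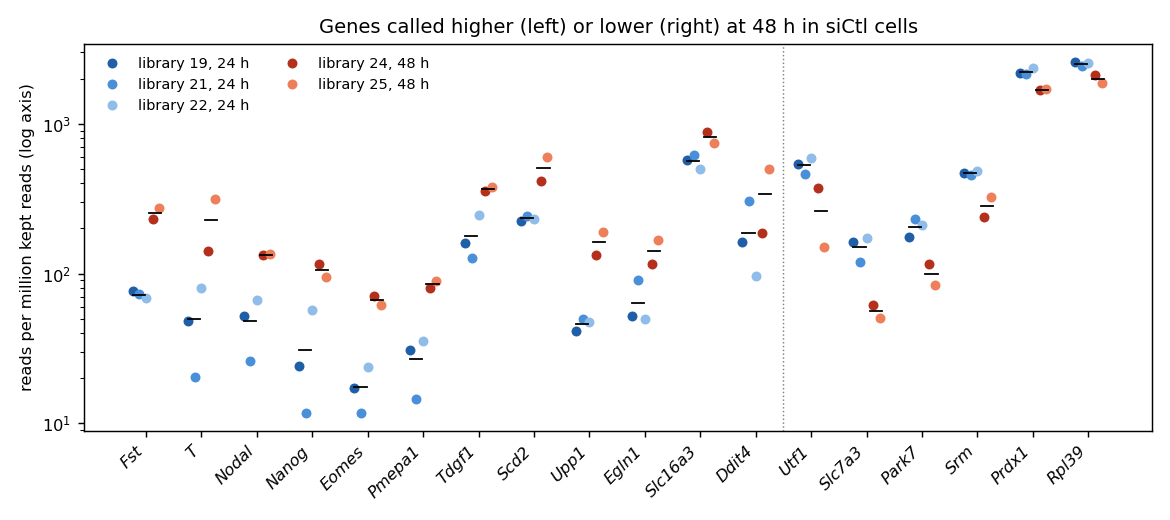
Level in RPM (y axis, log scale) in each siCtl library for 12 genes called higher (left of the dotted line) and 6 called lower (right) at 48 h; blue points are the 24 h libraries, red points the 48 h libraries, and black lines group means. The red points lie apart from the blue ones for each gene but Ddit4, for which library 21 lies between the 48 h libraries.

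Pluripotency genes did not move as a block. Of 15 tested, Nanog, a core factor, and Tdgf1 rose and Utf1, a chromatin factor of undifferentiated cells, fell. Nanog was at 24.2, 11.6 and 56.7 RPM at 24 h and at 115 and 95.1 RPM at 48 h (1.89 ± 0.40, adjusted p = 0.0045), on 65 reads in all. Utf1 was at 538, 459 and 593 RPM and then at 373 and 151 RPM (-1.26 ± 0.22, adjusted p = 0.00035), and without library 25 it no longer passed (adjusted p = 0.59). Nr0b1, a nuclear receptor of pluripotent cells, was at 34.5, 26.1 and 44.9 RPM against 8.87 and 0 RPM (adjusted p = 0.056). Sox2 was at 69.7 to 104 RPM at 24 h and at 204 and 83.9 RPM at 48 h, with overlapping groups (adjusted p = 0.56). L1td1, an RNA-binding protein, had a log2 fold change of 0.85 (adjusted p = 0.085). The median log2 fold change of the 15 genes was 0.42 beside 0.06 over all genes.

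Most hypoxia targets lay higher at 48 h, and few of them passed the test. Of 18 tested, 17 had a log2 fold change above 0, against 2600 of 4648 genes tested, with a median of 0.80, and 9 did not overlap between time points, against 16.6% of genes tested. The test called 2 of them. Egln1, the prolyl hydroxylase that marks HIF for degradation and is itself induced by HIF, was at 51.8, 90.1 and 49.6 RPM at 24 h and at 115 and 168 RPM at 48 h (1.24 ± 0.30, adjusted p = 0.022). Ddit4, an inhibitor of mTORC1 that hypoxia and other stresses induce, was at 162, 305 and 96.8 RPM and then at 186 and 498 RPM (1.03 ± 0.28, adjusted p = 0.048), and its groups overlapped. Library 21 was the highest 24 h library for Egln1, Ddit4, Egln3 and Ndrg1, so the 24 h libraries were spread widely for these genes. Ero1l, an oxidase of the endoplasmic reticulum, was at 48.3, 81.3 and 49.6 RPM against 115 and 123 RPM (adjusted p = 0.074), and Slc2a1, the glucose transporter GLUT1, at 197, 166 and 175 RPM against 266 and 263 RPM (adjusted p = 0.20). Bnip3, a mitophagy receptor, and Higd1a had small differences, with log2 fold changes of 0.13 ± 0.21 and 0.07 ± 0.17. No measure of oxygen is among the labels.

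Promoter windows of this list are shown because most hold the core letters of the hypoxia response element, ACGTG, a search chosen after values had been seen. The letters were searched on both strands in the 300 bases around the annotated start (250 before, 50 after) and were present in 11 of the 15 tested members with an entry, beside 29.6% of the 3754 promoters of genes with at least 30 reads and 19.5% of all promoters. Each line gives 30 bases (GRCm38.p6) on the strand of the gene with the match in capitals, for Egln1 (chr8:124949305-124949334, minus strand), Ddit4 (chr10:59951940-59951969, minus strand), Slc2a1 (chr4:119108697-119108726, plus strand) and Bnip3 (chr7:138909597-138909626, minus strand).
Egln1: gggccgtggtgtACGTGcagcgcgcgcgga
Ddit4: agaacgttgcgaACGTGcgcccggtgccta
Slc2a1: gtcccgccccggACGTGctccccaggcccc
Bnip3: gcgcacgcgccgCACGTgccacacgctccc
The match was present alike in Egln1 and Ddit4, which were called, and in Slc2a1 and Bnip3, which were not. The list was drawn up as hypoxia targets, so the share with these letters describes the list. It says nothing about a change in these libraries.

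Of the glycolysis genes, the 2 calls among 18 tested were transporters. Slc16a3, the lactate exporter MCT4, was at 576, 616 and 501 RPM and then at 878 and 750 RPM (0.52 ± 0.14, adjusted p = 0.048). Slc2a3, the glucose transporter GLUT3, was at 349, 369 and 255 RPM against 488 and 638 RPM (0.86 ± 0.17, adjusted p = 0.0020), but with reads restricted to those of mapping quality of at least 10 that aligned to 1 gene its log2 fold change was -0.03, so its level is uncertain. Ldha, Pkm, Pgk1 and Aldoa had log2 fold changes of 0.03 to 0.18, and none of the 4 passed. Pgm1, a phosphoglucomutase outside the list, rose by 0.99 ± 0.24 on the log2 scale (adjusted p = 0.022).

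Other genes called higher at 48 h served lipid, nucleotide and chromatin functions. Scd2, the desaturase that makes monounsaturated fatty acids, was at 224, 244 and 231 RPM at 24 h and at 417 and 604 RPM at 48 h (1.15 ± 0.18, adjusted p = 1.5e-05), while the sterol synthesis genes had 0 calls among 21. Upp1, uridine phosphorylase, was at 41.4, 49.4 and 47.2 RPM against 133 and 190 RPM (1.82 ± 0.30, adjusted p = 5.89e-05). Suz12, a core subunit of Polycomb complex PRC2, was at 58.7, 32.0 and 21.3 RPM against 124 and 123 RPM (1.91 ± 0.35, adjusted p = 0.00046). Wiz, a zinc finger partner of the H3K9 methyltransferases, was at 104, 110 and 113 RPM against 213 and 285 RPM (1.21 ± 0.23, adjusted p = 0.0012), and Ehmt2 (G9a), one of those enzymes, had a log2 fold change of 1.17 (adjusted p = 0.048). Zfp106 rose by 1.44 ± 0.29 on the log2 scale (adjusted p = 0.0019). With libraries thinned to 112720 reads each, T, Suz12 and Tdgf1 no longer passed (limma voom adjusted p = 0.072, 0.23 and 0.078). Upp1, Wiz and Zfp106 did not pass there either, while Fst and Scd2 did. Without library 25, Scd2, Upp1, Wiz, Zfp106 and Slc2a3 no longer passed, while Fst, T, Suz12 and Tdgf1 did.

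Some names among the calls are uncertain because of where their reads lay. Reads under D10Wsu102e were at 1854, 1601 and 2322 RPM at 24 h and at 3629 and 3968 RPM at 48 h (log2 fold change 0.99 ± 0.09, adjusted p = 5.8e-12). Of these, 90.6% lay at 1 place of the annotated transcript, with median limits of chr10:83460066-83460534 (mm10), 132 bases before a repeat of the ETnERV family that the deposited table lists at chr10:83460666-83465901, and their median mapping quality was 18. Reads under Vmn2r97, named as a vomeronasal receptor, were at 2112, 1920 and 2161 RPM and then at 3398 and 3610 RPM (0.77 ± 0.08, adjusted p = 1.84e-10), and 95.2% began within the same 100 bases of a transcript annotated as processed and not as coding. Both kept their call in each of the 14 alternatives tried, and the values hold for those reads and not for the genes whose names they carry. Gpx4-ps2, named as a copy of Gpx4, had a log2 fold change of 1.08 ± 0.22.

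The genes that fell at 48 h included abundant ones that fell by little and less abundant ones that fell by more. Rpl39, Rplp0, Rplp1 and Rpl41 were the 4 ribosomal protein genes called, with log2 fold changes of -0.36 ± 0.09, -0.21 ± 0.05, -0.18 ± 0.05 and -0.19 ± 0.05 (adjusted p = 0.043, 0.043, 0.048 and 0.048). Rplp0, of the ribosomal stalk, was at 6965, 6926 and 6944 RPM at 24 h and at 6379 and 5781 RPM at 48 h. Over the 77 ribosomal protein genes 13 were above 0, against 2600 of 4648 genes tested, and the median was -0.08. Of the 77, 36 were lower without overlap, against 11.9% of genes tested, and the part of depth in this was not tested. Prdx1, a peroxidase, was at 2171, 2141 and 2357 RPM and then at 1677 and 1701 RPM (-0.40 ± 0.10, adjusted p = 0.028). Park7 (DJ-1), a redox-sensitive protein, and Srm, spermidine synthase, had log2 fold changes of -1.08 ± 0.29 and -0.71 ± 0.19, and Slc7a3, a transporter of cationic amino acids, was at 162, 119 and 172 RPM against 62.1 and 50.4 RPM (-1.40 ± 0.38); each had an adjusted p of 0.048. Bad, a pro-apoptotic BCL2 family member, was called on 40 reads, of which 39 were at 24 h. With barcode confidence of at least 0.9, 1 gene was called lower, and without library 25 none of Utf1, Prdx1, Rpl39, Rplp0, Park7, Slc7a3, Rplp1, Srm and Rpl41 passed.

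Gene groups of stress and growth showed few calls. None of the tested genes passed in either direction in the lists of neural (4 tested), endoderm (1), retinoic acid targets (1), interferon response (4), unfolded protein response (15), heat shock chaperones (21), p53 targets (7), immediate early genes (8), S phase (35), G2 and M phase (49), respiratory chain (77), proteasome subunits (35), extracellular matrix and adhesion (16), deadenylation and poly(A) binding (17), lysosome and autophagy (17) and the other TOP mRNAs (22). Of the 25 genes of Atf4 and amino acid stress, Ddit4 was the 1 higher and Slc7a3 the 1 lower, and Atf4 itself had a log2 fold change of 0.30 ± 0.19. In the unfolded protein response 13 of 15 were above 0 with a median of 0.22, and in extracellular matrix and adhesion 12 of 16 with a median of 0.34, led by Actb at 311, 267 and 321 RPM against 364 and 543 RPM (adjusted p = 0.061). Low reads limit these lists: a list in which most genes had under 100 reads could miss changes of the size seen for Nodal or T.

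The siLarp1 libraries, which were not used for any call above, were set beside the siCtl libraries for the same contrast. They carried less Larp1 mRNA, and those of 48 h were sequenced in the same pool as the 48 h siCtl libraries, so the 2 sets are not independent of the pool. Of 51 genes called on level (1.1% of those tested), 45 were tested in the siLarp1 libraries, 44 differed in the same direction and 11 were also called, where 0.495% of genes tested were called higher and 0.626% lower, while 62.0% of all 3030 genes measured in both sets shared a direction. T had a log2 fold change of 2.05 there, Fst 1.60, Tdgf1 1.35, Utf1 -0.79 and Rpl39 -0.54. Nodal had 1.05, Nanog 0.89, Egln1 0.62 and Ddit4 0.28, none of which passed there (limma voom adjusted p = 0.20, 0.41, 0.52 and 0.82). The median log2 fold change of the hypoxia targets was 0.24 over 10 genes tested there, beside 0.80 in the siCtl libraries. Of the 12 genes with shorter tails, 11 differed in the same direction and 3 were also called, where 0.033% were called longer and 0.099% shorter, beside 54.7% of all genes in the same direction. Eef1a1 had a tail difference of -7.80 nt, Rplp1 of -6.51 nt, Pou5f1 of -5.08 nt and Gapdh of -0.82 nt in the siLarp1 libraries. The median tail difference over all genes was -3.50 nt there, and for the 77 ribosomal protein genes -3.44 nt. Over the members tested there it was -5.43 nt for the Nodal list and -7.49 nt for G2 and M phase, of the other sign than in the siCtl libraries. For deadenylation and poly(A) binding it was 2.15 nt, of the same sign. A test of the difference between the time effects of the siCtl and siLarp1 libraries called 0 of 4648 genes on level (limma voom, 189 at an unadjusted p under 0.05) and 0 of 4405 on mean tail (limma, 228 at an unadjusted p under 0.05).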

How the data were processed

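Direct RNA reads of siCtl P19 cells were analysed from 1 deposited table with 1 line per read and aligned sequence. In the authors' processing, reads were base called with Guppy, assigned to barcodes with Deeplexicon and aligned with minimap2 (2.20 in the submitters' processing notes) to mouse transcripts (mm10, GENCODE), repeats and RNA standards, and tail lengths in nt came from Nanopolish. The deposited values were not normalized; the table also holds, as the authors' tools gave them, a minimap2 mapping quality score and a barcode confidence, a fraction from 0 to 1. The column that names the library gives its group but not which labelled replicate it is, so libraries were placed in groups only.

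Kept reads were mRNA alignments of PASS quality without mitochondrial mRNAs and pseudogenes, 112720 to 423398 per library, counted once per gene and library. Levels were tested with limma 3.58.1 (voom; R 4.3.3) on these counts scaled by kept reads, and mean tails and tail-class percentages with limma weighted by reads with a trend, over genes with at least 30 reads in the 5 libraries and, for tails, reads in at least 2 libraries of each time point. P-values were adjusted by Benjamini-Hochberg over all genes tested (threshold 0.05). Library measures were compared by two-sided exact permutation tests. A low gene's value rests on few reads, and counting error alone is then large. Named genes were the 12 (level) or 8 (tail measures) with the smallest p among those called in each direction without overlap between time points, the 5 with the smallest p where fewer passed, the extremes of level and tail, and list members; others named were chosen after their values were seen, and a few genes are not reported here. Members, lists and tests were chosen with earlier results of these data known. Scripts used Python 3.11.15 (pandas 2.3.3, numpy 2.4.6, scipy 1.17.1) and were tested on simulated data. Promoter sequences were from RefSeq (GRCm38.p6), with an entry for 57 of 77 ribosomal protein genes. Alternatives were other read minimums, scalings, quality tags, barcode confidence, mapping quality, transcripts in place of genes, thinned libraries, other tail classes and leaving out each library.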

Additional observations from a re-analysis of the deposited data

How the results depend on the processing

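The 18 library measures kept their direction in all 144 alternatives computed. The number of genes called on level, 51 in the report, was 22 with at least 100 reads, 77 with at least 1 read, 15 with barcode confidence of at least 0.9, 15 with mapping quality of at least 10 and 1 gene, 20 with limma trend, 4 of 2472 genes with libraries thinned to 112720 reads, 85 for transcripts and 30 to 66 when a library was left out (30 without library 19, 66 without library 24). The median log2 fold change was -0.018 with at least 100 reads and 0.34 with at least 1 read. At an unadjusted p under 0.05 by limma voom, 105 genes were higher and 99 lower with at least 100 reads. With at least 1 read these counts were 1333 and 212. Slc2a3 was at -0.030 under the mapping quality setting. The number of genes with shorter tails, 12, was 2 for median tails, 23 on the log2 scale, 0 after centring on the library median (113 longer and 112 shorter at an unadjusted p under 0.05 by limma) and 0 to 59 when a library was left out; the median tail difference was 0.30 nt after centring, by the construction of that setting, -4.88 nt with all quality tags and -3.93 to -5.63 nt when a library was left out. The 0 calls on <30-nt tails became 4 with all quality tags, 1 for tails under 20 nt and 0 to 28 when a library was left out. Dnajc24 was at 13.98 points for tails under 40 nt, and Eif3b at 0.69 with all quality tags and 1.77 for tails under 40 nt. The 16 calls on 30 to 90-nt tails became 25 on log2 odds, 25 with at least 100 reads, 8 for 40 to 80 nt and 3 to 27 when a library was left out. Among mitochondrial mRNAs the difference of mt-Atp6 was -0.40 nt at barcode confidence of at least 0.9, -0.038 nt with all quality tags and -1.305 to 1.14 nt when a library was left out, and the differences of mt-Co1 (-2.52 to 0.10 nt), mt-Co3 (-1.195 to 0.445 nt) and mt-Nd3 (-1.005 to 0.20 nt) also changed sign when a library was left out. Except where the setting itself shows it, the cause was not tested.

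No paired analysis was possible because the library names in the deposited table carry no labelled replicate number. With 112720 reads in the shallowest library and 2 libraries at 48 h, a difference in a gene with few reads was detectable only where large, and 3 against 2 libraries cannot give an exact p below 0.2.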

Other observations

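Reads aligned to repeats were tabulated outside the comparisons above, per 1000000 alignments of PASS quality. LTR elements, the class of endogenous retroviruses, were at 3228, 2907 and 3474 in the 24 h libraries and at 4117 and 4344 in the 48 h libraries, a ratio of means of 1.32, and the time points did not overlap. Within the class, ERVB7_1-LTR_MM was at 1075, 981 and 1100 against 1565 and 1329, and RLTRETN_Mm, an LTR of the ETn family, at 700, 510 and 693 against 845 and 893. RMER4B lay the other way, at 88.0, 96.4 and 116 against 58.6 and 63.8. LINE elements were at 2955, 3334 and 2895 against 3339 and 3743, and SINE elements at 4812, 4389 and 4793 against 5154 and 4562, and the SINE values overlapped. No test was run on these values. The share of alignments of mapping quality 0 was also higher at 48 h (12.5 to 13.1% at 24 h, 14.9 and 18.3% at 48 h), and its part in them was not tested.

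The difference between the time effects of the siCtl and siLarp1 libraries, a test added after values had been seen, was called for 0 of 4405 genes on 30 to 90-nt tails (limma, 241 at an unadjusted p under 0.05) and for 1 of 4405 on <30-nt tails, Ppp2r1a, a scaffold subunit of protein phosphatase 2A, which was named after its value was seen (262 at an unadjusted p under 0.05).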
